A study of Mus musculus with 2 samples.

Results

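Long-read RNA sequencing of the adrenal gland gave, beside reads of annotated genes, a set of transcript models that the authors placed in new genes between annotated ones. These intergenic models are described here. They were taken as all models whose gene is of the class intergenic in the deposited tables. They number 2618 of 125539 models in replicate 1 and 964 of 65191 in replicate 2, or 3582 of 190730 in all. The 2 libraries came from adrenal glands of female B6CASTF1/J mice aged 2 months, the first-generation cross of C57BL/6J and CAST/EiJ, with no treatment and no second group. The labels call them biological replicates 1 and 2 but give 1 donor identifier for both, so a p-value below measures the difference between 2 libraries, which may be technical. Models of both libraries were joined into 1 locus wherever their spans overlapped by at least 1 base on the same strand, which gave 2944 loci.

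A gene annotation is a list of known transcripts, and reads that fall outside it can belong to genes that have not been catalogued, to transcription that runs past a gene's end, or to divergent transcription at promoters. Spliced models with more than 1 exon carry evidence of RNA processing that single-exon models lack. Divergent transcription means that RNA polymerase starts in both directions from 1 promoter region, and long noncoding RNAs often start at such sites. The adrenal cortex makes steroid hormones from cholesterol, and the chromaffin cells of the medulla make catecholamines.

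The 5′ ends of intergenic models are shown here in promoter windows of RefSeq, a second catalogue of genes, on build GRCm38.p6 (the coordinates of mm10). A window runs from 250 bases before to 50 bases after a gene's start. The 5′ ends of 96 models in 61 loci fell inside a window on their own strand, and 45 of the 61 loci had a model of more than 1 exon. The following 5 windows belong to multi-exon loci with such a 5′ end in both libraries, and were chosen after the values had been seen. Loci of a 2-exon group described below, among them Gm52720 (12 and 5 reads), were left out of this choice. So was Gm52520 (9 and 2 reads), which was taken to resemble a long terminal repeat, a kind of repeated sequence. Bases inside exons of the intergenic models are in capitals, so the first capital marks the outermost 5′ end of the deposited models. The ends of models need not be those of single reads.
Gm31418: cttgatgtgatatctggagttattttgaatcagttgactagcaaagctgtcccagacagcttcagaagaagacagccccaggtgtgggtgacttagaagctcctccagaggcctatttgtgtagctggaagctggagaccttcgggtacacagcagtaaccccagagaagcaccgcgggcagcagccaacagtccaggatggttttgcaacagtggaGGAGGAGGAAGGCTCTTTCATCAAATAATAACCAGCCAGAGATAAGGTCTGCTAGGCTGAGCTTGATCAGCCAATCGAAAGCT
Gm38872: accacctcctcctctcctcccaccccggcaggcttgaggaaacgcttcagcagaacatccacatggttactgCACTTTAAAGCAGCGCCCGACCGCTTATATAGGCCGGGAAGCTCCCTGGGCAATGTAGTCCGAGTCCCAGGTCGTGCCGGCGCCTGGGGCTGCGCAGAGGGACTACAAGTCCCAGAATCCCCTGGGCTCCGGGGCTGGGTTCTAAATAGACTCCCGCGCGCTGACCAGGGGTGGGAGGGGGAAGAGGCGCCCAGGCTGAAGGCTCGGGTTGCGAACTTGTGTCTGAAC
4931408D14Rik: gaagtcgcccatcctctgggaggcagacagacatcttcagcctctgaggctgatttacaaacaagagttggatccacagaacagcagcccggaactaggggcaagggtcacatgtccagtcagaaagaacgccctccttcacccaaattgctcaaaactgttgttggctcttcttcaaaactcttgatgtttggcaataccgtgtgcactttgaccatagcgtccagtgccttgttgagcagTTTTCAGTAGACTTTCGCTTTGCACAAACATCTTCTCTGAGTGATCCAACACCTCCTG
AB010352: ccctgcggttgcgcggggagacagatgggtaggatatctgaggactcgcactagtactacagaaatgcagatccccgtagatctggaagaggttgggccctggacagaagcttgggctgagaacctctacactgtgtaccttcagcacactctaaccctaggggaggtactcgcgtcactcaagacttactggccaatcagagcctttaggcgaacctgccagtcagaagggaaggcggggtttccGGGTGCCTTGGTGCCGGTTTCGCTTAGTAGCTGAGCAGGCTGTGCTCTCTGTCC
Gm38882: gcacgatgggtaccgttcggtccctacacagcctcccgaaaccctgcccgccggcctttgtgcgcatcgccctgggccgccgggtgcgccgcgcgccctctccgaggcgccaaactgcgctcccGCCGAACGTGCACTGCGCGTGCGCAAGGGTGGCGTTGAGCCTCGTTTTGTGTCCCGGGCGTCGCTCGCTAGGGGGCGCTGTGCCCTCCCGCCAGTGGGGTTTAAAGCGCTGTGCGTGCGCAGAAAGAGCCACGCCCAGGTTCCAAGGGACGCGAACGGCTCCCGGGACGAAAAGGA

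The Gm31418 window lies at chr19:55127021-55127320 on the plus strand, and its models began 33 bases before the RefSeq start in both libraries, with 4 reads in replicate 1 and 2 in replicate 2. The Gm38872 window lies at chr6:108212869-108213168 on the minus strand, where models began 178 bases before the RefSeq start, with 3 reads in each library. In the window of 4931408D14Rik, chr19:37264046-37264345 on the minus strand, 5′ ends lay between 8 bases before and 10 bases after the RefSeq start, with 4 reads and 1 read. In that of AB010352, chr5:109866461-109866760 on the plus strand, they lay between 4 bases before and 8 bases after it, with 4 reads and 2 reads. In that of Gm38882, chr6:117879383-117879682 on the plus strand, they lay 118 to 126 bases before it, with 4 reads and 1 read. All 5 loci were thus seen in both libraries at few reads. At Gm31418 and Gm38872 the 5′ end was the base shared with an annotated gene, Gpam and Itpr1. Their equal offsets in both libraries are therefore those of the gene's edge. Over all 96 models, with such loci not set apart, the median distance between 5′ end and RefSeq start was 34 bases.

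A second set of windows, at the starts of annotated genes, shows intergenic models that leave such a start in the opposite direction. Among the loci above, those of Gm31418 and Gm38872 did so as well, touching the starts of Gpam and Itpr1. The 3 windows that follow are examples from the 307 such loci described below, with reads in both libraries and a RefSeq window of that gene at the 5′ end. In them, the sequence is on the strand of the gene. Capitals again mark bases inside the exons of the intergenic models, which run from right to left.
Med26: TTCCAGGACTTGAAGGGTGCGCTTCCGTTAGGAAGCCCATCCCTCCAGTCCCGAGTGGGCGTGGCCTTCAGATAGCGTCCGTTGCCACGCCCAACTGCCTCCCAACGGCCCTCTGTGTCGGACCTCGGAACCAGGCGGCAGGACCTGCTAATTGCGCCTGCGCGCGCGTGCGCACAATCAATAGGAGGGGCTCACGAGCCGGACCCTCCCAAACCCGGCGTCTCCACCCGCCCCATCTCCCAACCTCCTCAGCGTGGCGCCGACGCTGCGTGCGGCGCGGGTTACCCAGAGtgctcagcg
P4hb: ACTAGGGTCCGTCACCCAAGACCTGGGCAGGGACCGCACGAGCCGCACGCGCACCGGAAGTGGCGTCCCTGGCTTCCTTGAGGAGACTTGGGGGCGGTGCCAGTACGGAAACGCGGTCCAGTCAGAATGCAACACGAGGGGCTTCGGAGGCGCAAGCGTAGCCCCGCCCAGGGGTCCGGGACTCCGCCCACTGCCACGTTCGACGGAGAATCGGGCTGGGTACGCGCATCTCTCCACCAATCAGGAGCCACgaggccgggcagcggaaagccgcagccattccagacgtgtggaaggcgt
Selenoi: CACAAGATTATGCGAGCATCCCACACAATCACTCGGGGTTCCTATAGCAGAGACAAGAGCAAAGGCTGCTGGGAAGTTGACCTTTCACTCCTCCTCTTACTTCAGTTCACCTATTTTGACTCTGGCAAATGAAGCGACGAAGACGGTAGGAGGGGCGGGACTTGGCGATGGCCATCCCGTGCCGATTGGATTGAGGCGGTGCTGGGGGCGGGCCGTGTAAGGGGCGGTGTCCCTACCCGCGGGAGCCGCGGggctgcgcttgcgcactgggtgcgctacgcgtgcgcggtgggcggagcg

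The window of Med26, a subunit of the Mediator complex, lies at chr8:72548261-72548560 on the minus strand, and the opposite models there held 9 reads in replicate 1 and 6 in replicate 2, against 9 and 9 reads of the gene itself. The window of P4hb, which encodes protein disulfide isomerase, lies at chr11:120573204-120573503 on the minus strand, with 6 and 2 reads in the opposite models against 1832 and 472 of the gene. The window of Selenoi, an ethanolamine phosphotransferase, lies at chr5:30232331-30232630 on the plus strand. The opposite models that touch its start held 2 reads and 1 read, against 18 and 10 of the gene. These windows held 31, 31 and 26 CG dinucleotides, against a median of 7 over all 32851 RefSeq windows and of 15 over the 61 windows with a 5′ end on the same strand.

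Motifs were searched on both strands as exact letters. TATAAA, the TATA box, was in 5 of the 61 windows (8.20%) and in 13.6% of all windows. GGGCGG, the GC box, was in 29 of the 61 (47.5%) and in 35.7% of all windows. CCAAT was in 21 of the 61 (34.4%) and in 37.4% of all. CAAGGTCA, a half-site of the steroidogenic factor NR5A1, was in 2 of the 61 (3.28%) and in 1.56% of all. Of the 8 printed windows, none held TATAAA or CAAGGTCA. These shares are descriptions with no test.

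Intergenic models were many in number and held few reads. The deposited counts sum to 6307 reads in replicate 1 and 1656 reads in replicate 2. Relative to reads of annotated nuclear genes (1209457 and 502655 reads, to which counts are scaled as CPM), this was 0.521% for replicate 1 (exact Clopper-Pearson 95% interval 0.509 to 0.534) and 0.329% for replicate 2 (0.314 to 0.346). Scaled to CPM, the class stood at 5215 and 3295, or 4255 ± 1358 (SD, n = 2). Intervals cover counting error only. The more deeply sequenced library therefore had the larger share as well as the larger number. A single read supported 1976 models in replicate 1 (75.5%) and 773 in replicate 2 (80.2%), and 63 and 18 models had at least 10 reads. The 10 models with the most reads held 19.3% and 16.7% of the class's reads. Antisense models, the other class of new genes, were more abundant, with 3.41% and 2.12% of all reads against 0.494% and 0.318% for intergenic models on the same base, and both classes were lower in replicate 2.

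The tissue labels were checked against marker lists. All 6 adrenal cortex markers and all 5 chromaffin cell markers had at least 3 reads in each library, at 63522 and 82956 CPM summed for the cortex list and 11580 and 6677 CPM for the chromaffin list. None of the 5 kidney markers did, with sums of 4.13 and 3.98 CPM. The liver list reached 147 and 55.7 CPM, adipocyte markers 978 and 1285 CPM, and red blood cell markers 1153 and 718 CPM. Chromaffin, liver and red blood cell markers were thus lower in replicate 2, as intergenic reads were, and their part in the difference was not tested. Fewer cells of a type and less RNA per cell cannot be told apart in such bulk tissue.

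Fewer than 1 in 5 intergenic loci of the deeper library were found again. Of 2416 loci in replicate 1 and 902 in replicate 2, 374 had a model in both, which is 15.5% of the first and 41.5% of the second. Those 374 loci held 48.5% of the intergenic reads of replicate 1 and 59.1% of those of replicate 2. Antisense loci were shared more often, 2979 of them, or 25.0% and 57.1%, in a class with more reads per model. Recovery rose with the reads of the locus. Loci with 1 read in replicate 1 were found in replicate 2 in 6.83% of 1772 cases, those with 2 reads in 18.1% of 277, those with 3 to 9 reads in 50.8% of 299, and those with 10 or more in 75.0% of 68. Where a library had no read, its level could still be as high as 2.48 CPM (replicate 1) or 5.97 CPM (replicate 2), which is 3 reads. The absence from replicate 2 of a replicate 1 locus under 5.97 CPM, and from replicate 1 of a replicate 2 locus under 2.48 CPM, was thus not detectable at this depth. At 3 or more reads in each library, 63 loci remained.

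The ends of single-exon models recurred between libraries at part of the shared loci. A single-exon model in each library was found at 322 loci, of which 38 also had a multi-exon model. Their leading single-exon models differed by a median of 5.5 bases at the 5′ end and by 1 base at the 3′ end. Both ends lay within 10 bases of each other in 127 of the 322 loci (39.4%), and the other loci differed by more at 1 end or both. Of all 374 shared loci, 90 shared 1 end base with an annotated gene, as described below. An end placed at a gene's edge is the same base in either library, so part of this closeness can lie there. Such loci were not set apart. Of the loci seen in replicate 1 only, 66 of 2042 (3.23%) had at least 50% of their exon bases covered in replicate 2 by same-strand models that the authors' tables place in another class. The same held for 55 of 528 (10.4%) seen in replicate 2 only. At such loci both libraries had reads on the strand of the locus, counted as intergenic in 1 of them.

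**Figure D1:**
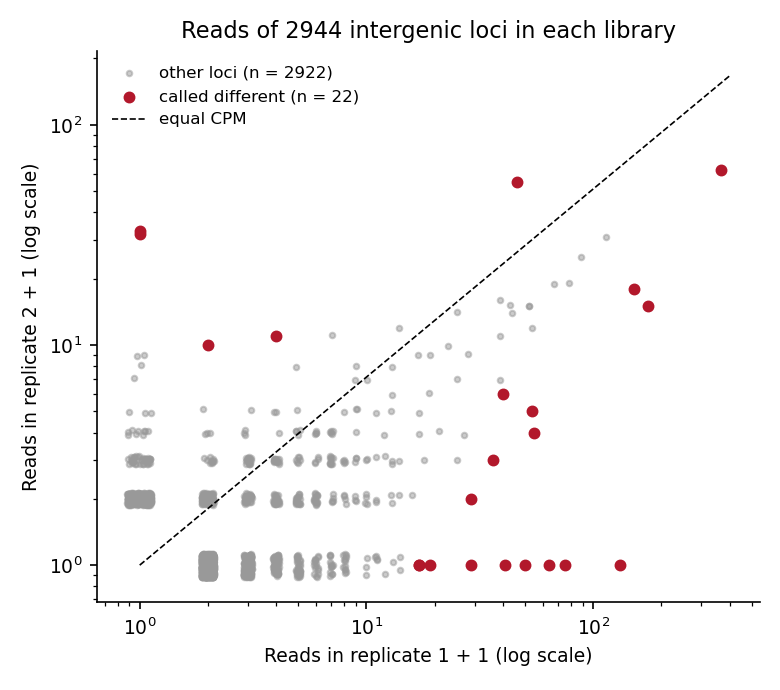
Reads of each intergenic locus in replicate 1 (x axis) and replicate 2 (y axis), both plus 1 and on log scales, with points spread slightly where they coincide. The dashed line marks equal CPM, and red points are the 22 loci called different, of which 17 lie below the line and 5 above it.

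Most intergenic models had 1 exon. Models of 2 or more exons made up 384 of 2618 (14.7%, exact 95% interval 13.3 to 16.1) for replicate 1 and 146 of 964 for replicate 2 (15.1%, 12.9 to 17.6), with overlapping intervals. The share lay above that of antisense models (7.46% and 8.06%) and far below that of annotated models with reads (91.3% and 93.8%). There were 238 and 82 models of 2 exons and 90 and 28 of 3 exons. The most exons were 6 in replicate 1 and 11 in replicate 2, each in models with 1 read. Multi-exon models held 9.12% and 14.1% of the class's reads. Loci with a multi-exon model were found again more often than the rest: 90 of 358 were in both libraries (29.1% and 64.7% of those in each), against 284 of 2586 single-exon loci (13.5% and 37.2%). A locus counted as multi-exon if any model of either library had more than 1 exon. Loci in both libraries thus had more models through which to be counted so, and reads per locus were not held equal.

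The lengths of single-exon models had a narrow peak. Models of 171 to 180 bases made up 262 of 2234 single-exon models in replicate 1 (11.7%) and 96 of 818 in replicate 2 (11.7%). The neighbouring bins of 161 to 170 and 181 to 190 bases held 3.58% and 2.06% in replicate 1, and 3.18% and 1.71% in replicate 2. Antisense single-exon models of 171 to 180 bases were 1.93% and 1.32% of their class. The peak thus had the same position and height in both libraries. This length range was chosen after the values had been seen. Median lengths of single-exon models were 505 and 852 bases, and of multi-exon models 1148 and 1832 bases. A further 7 models in replicate 1 and 3 in replicate 2 are listed with a length of 1 base.

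**Figure D2:**
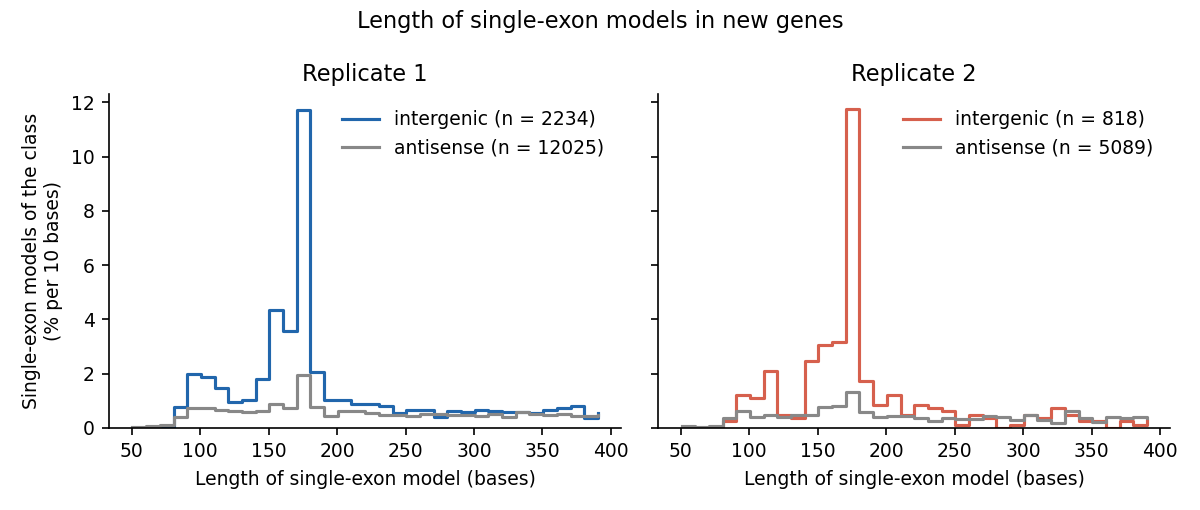
Lengths of single-exon models from 51 to 390 bases in bins of 10 bases, as a percentage of all single-exon models of the class, for intergenic models (coloured) and antisense models (grey) in each library. The highest intergenic bin, 171 to 180 bases, holds 11.7% in each library.

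Loci of 165 to 185 bases numbered 406, of which 51 (12.6%) were in both libraries and 15 had at least 10 reads. They held 899 and 190 reads. The locus at chr15:103619061-103619240 on the plus strand, 30552 bases from Gm49272, had 51 and 14 reads. The locus at chr2:50017465-50017641 on the minus strand, 48788 bases from Lypd6, had 42 and 14 reads. The locus at chr7:34182938-34183114 on the minus strand, 1385 bases downstream of Pdcd2l, had 38 and 15 reads. These loci had 177 to 180 bases and lay on 3 chromosomes, and each was present in both libraries. They are examples chosen after their values were seen. The locus of this range with the most reads, at the pseudogene Gm12033, had 131 and 0 reads and is described below. Some others of the 15 also had 0 reads in replicate 2.

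Intergenic loci lay close to annotated genes, and more than 1 in 5 touched one. With gene spans of GENCODE M21, the annotation of the deposited models, 2305 of 2944 loci (78.3%) overlapped no gene and 626 (21.3%) shared exactly 1 base with one, their own last or first base being the gene's. Of the other loci, 8 overlapped a gene on the opposite strand, 3 an exon and 1 an intron of a gene on the same strand, and 1 lay on a contig without annotated genes. The class with 1 shared base was made after the values had been seen. Over the 2943 loci with a gene on their contig, the median distance to the nearest gene was 2408 bases (quartiles 519.5 and 8308). It was 4182 bases over loci that overlapped none. Beyond 50 kb lay 116 loci and beyond 100 kb 42, with a maximum of 321947 bases. The median was 2084 bases for loci in both libraries, 2430 for those in replicate 1 only and 2339.5 for those in replicate 2 only. Multi-exon loci lay farther out (median 6336 bases over 358 loci) than single-exon loci (2164 over 2585).

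Orientation depended on whether a locus touched the gene. Of the 626 touching loci, 307 (49.0%) ran away from the gene's start on the opposite strand. A further 208 (33.2%) began at the gene's end on its strand, 69 (11.0%) met the gene's end from the opposite strand, and 42 (6.71%) ended at the gene's start. Whether reads joined gene and locus was not tested. Of the 307 divergent loci, 48 were multi-exon and 41 in both libraries. Their genes had a median of 20 and 10 reads, and 68.1% of the genes reached 3 reads in each library. For the 69 touching loci at the gene's end on the opposite strand the values were close, 21 and 8 reads and 65.2%. On the same strand the share was 53.4% downstream and 50% upstream. Among the 1661 loci at a distance of 1 base to 10 kb the 4 positions were more even: 443 upstream and 441 downstream on the same strand, 341 divergent and 436 convergent. On the same strand as the gene lay 53.2% of them. Over all loci that overlapped no gene, the nearest gene was protein coding for 61.4%, a processed pseudogene for 12.9% and a long intergenic noncoding RNA for 11.2%.

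**Figure D3:**
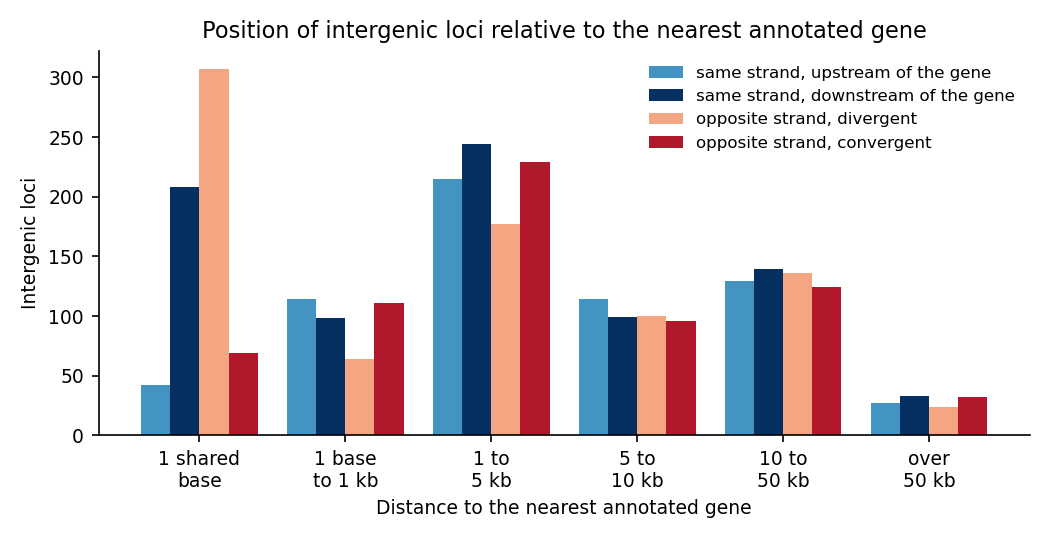
Number of intergenic loci by distance to the nearest annotated gene (x axis) and by orientation (colours). Of the loci that share 1 base with a gene, 307 are divergent and 208 begin at the gene's end on its strand, whereas the 4 orientations are closer together in the other distance bins.

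Divergent loci that touched a gene's start and were seen in both libraries lay at genes of many kinds. Among these touching loci the one with the most reads, chr10:45063659-45067203, left the start of Prep, a prolyl endopeptidase, and had 13 and 11 reads against 92 and 68 of the gene. At Bicra, a chromatin remodelling subunit, the divergent locus held 8 and 6 reads and the gene only 2 and 1. At Bmpr2, a receptor for bone morphogenetic proteins, the locus held 12 and 1 reads and the gene 13 and 4. The Bicra locus was thus above its gene in both libraries, and the Prep and Bmpr2 loci were below theirs.

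The 10 loci with the most reads included 7 whose joined models spanned several kilobases and 3 that touched a processed pseudogene. The most abundant, chr13:55184770-55189155 on the plus strand, lay 16.0 kb downstream of Fgfr4, a receptor for fibroblast growth factors. It had 367 reads (303 CPM) in replicate 1 and 61 reads (121 CPM) in replicate 2, more than the 65 and 29 reads of Fgfr4 itself. Its leading single-exon models began within 1 base of each other, but the deposited model was 2832 bases long in replicate 1 and 149 bases in replicate 2. The lengths given in the files are those of models, not of each read, and a length can differ between libraries at the same 5′ end.

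On chromosome X, the locus chrX:32502591-32507553, 52.5 kb from the nearest gene Btbd35f1, had 173 reads (143 CPM) and 14 reads (27.9 CPM). The locus chr2:75638368-75642873, which diverges from the pseudogene Gm13655 at 4.99 kb, had 150 reads (124 CPM) and 17 reads (33.8 CPM). The locus chr11:86811827-86816129, 4.08 kb upstream of the helicase gene Dhx40 on its strand, had 113 reads (93.4 CPM) and 30 reads (59.7 CPM), and its leading models were 4302 and 4303 bases long with the same 3′ end. At the first of these loci the libraries differed 5.14-fold and at the last 1.57-fold.

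The locus chr14:32115639-32120460, 12.4 kb downstream of Oxnad1, had 87 reads (71.9 CPM) and 24 reads (47.7 CPM). Its leading models were 2607 and 156 bases long, with 5′ ends 1 base apart. The locus chr15:82356738-82367882, which diverges at 2.42 kb from Ndufa6, a subunit of respiratory complex I, had 66 reads (54.6 CPM) and 18 reads (35.8 CPM) in 14 models of up to 4 exons. The locus chr2:53694364-53696121, which begins at the end of the pseudogene Gm13502 on its strand, had 77 reads (63.7 CPM) and 18 reads (35.8 CPM), with leading models of 1758 and 1755 bases. All 3 had the higher CPM in replicate 1 and none passed the test given below.

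Loci with a span of 4200 to 5000 bases were frequent among those with many reads. The span is that of all joined models of a locus. At the Fgfr4 and Oxnad1 loci no single model was that long. There were 54 such loci, 25 of them in both libraries, and they held 1157 and 301 reads, which is 18.3% and 18.2% of the class. This range too was chosen after the values had been seen.

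None of the 5 multi-exon loci with the most reads among the rest was called different between the libraries. The locus upstream of Gstp3, a glutathione transferase, at chr19:4061501-4066106, had 53 reads (43.8 CPM) and 11 reads (21.9 CPM). The locus at Xpo6, the nuclear export receptor for actin, chr7:126099724-126162741, had 43 reads (35.6 CPM) and 13 reads (25.9 CPM). Its leading models were single exons of 171 and 167 bases with the same 5′ end, and a 2-exon model extends the span to 63018 bases across the gene's opposite strand. The locus upstream of the pseudogene Gm48064, chr12:23021929-23026669, had 38 reads (31.4 CPM) and 10 reads (19.9 CPM). The locus upstream of Rhbdd2, of the rhomboid family, chr5:135624008-135628897, had 27 reads (22.3 CPM) and 8 reads (15.9 CPM). The locus upstream of the pseudogene Gm28665, chr7:48124176-48132211, had 22 reads (18.2 CPM) and 9 reads (17.9 CPM). At 4 of the 5 most reads were nevertheless of single-exon models, which held 60 of 64 reads at the Gstp3 locus, 54 of 56 at Xpo6, 45 of 48 at Gm48064 and 34 of 35 at Rhbdd2. At the Gm28665 locus they held only 5 of 31. The lowest adjusted p of Fisher's exact test among the 5 was 0.147, at the Gstp3 locus, where the fold was 2.00 (exact 95% interval 1.03 to 4.25).

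The Gm28665 locus is 1 of 9 loci on 6 chromosomes that had the same structure of 2 exons. They were found as 2-exon models with a first exon of 200 to 240 bases and an intron of 5200 to 5400 bases, and 17 of 320 intergenic 2-exon models met both limits. A further model had such an intron and a first exon of 342 bases. Within the 17, first exons had 203 to 222 bases, introns 5262 to 5306 bases and second exons 1195 to 3116 bases (median 2508). An intron of exactly 5276 bases recurred in 6 models at 4 loci. Of the 9 loci, 7 had a model in both libraries, and all reads at the 9 loci came to 70 and 27.

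In the Gm28665 locus both libraries had a 2-exon model of 2729 bases, with 17 and 9 reads. In the locus nearest to Vmn1r3, chr4:3192265-3200300, 2-exon models of 2731 and 2732 bases had 6 and 4 reads. That locus overlaps the RefSeq gene Gm52720. In the locus nearest to Gm48300, chr13:119661836-119669869, they had 6 reads and 1 read, beside a shorter single-exon model with 20 reads in replicate 1. In the locus nearest to the histone gene Hist1h4m, chr13:21813008-21820126, 3 models in replicate 1 with 1 read each differed in the start of the second exon, and 1 model in replicate 2 had 2 reads. No nearest gene of the 9 had more than 5 reads in either library. Loci this alike in structure may be near-identical copies, between which the authors' alignment could split reads, so the count at each single locus is uncertain. Their sequences were not compared. The group was defined after its values had been seen.

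**Figure D4:**
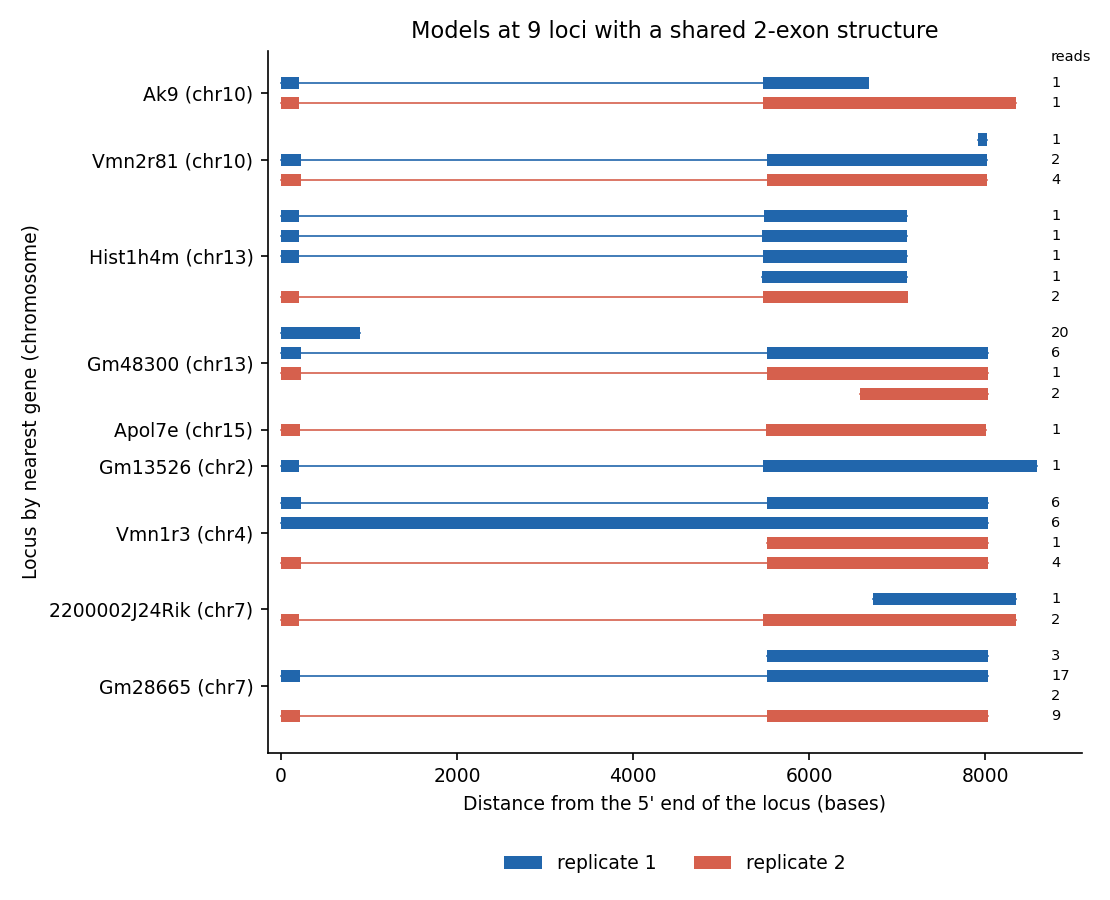
Exons (bars) and introns (thin lines) of the models at the 9 loci, drawn to scale in bases from the 5′ end of each locus, with reads per model at the right. A first exon of 203 to 222 bases and an intron of 5262 to 5306 bases recur at each locus, and a model of 1 base at the Gm28665 locus with 2 reads is too short to see.

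RefSeq held genes for part of the loci that M21 does not name. By strand and span, 200 loci (6.79%) overlapped a RefSeq gene whose symbol and synonyms are not in M21, and for 181 of them that gene was a long noncoding RNA. This was so for 95 of 358 multi-exon loci (26.5%) and for 105 of 2586 single-exon loci (4.06%). Whole spans were matched, introns included, and their size was not held equal. Multi-exon models spanned a median of 4757 and 5813 bases, against 505 and 852 for single-exon models. The locus of Urml, chr13:68213271-68300827 on the minus strand, had the most reads among loci with a 5′ end in a RefSeq window on their strand, 16 (13.2 CPM) and 8 (15.9 CPM), in 13 models of up to 4 exons. The locus of Gm40376, chr12:32724697-32771444, had 7 reads in replicate 1 and 0 in replicate 2. The locus at Gm31418, whose window is printed above, held models of up to 5 exons with 4 and 3 reads in all. Matching by symbol can miss genes that carry different names in the 2 catalogues.

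On chromosome Y, 23 loci had reads in these libraries from female mice, 118 in replicate 1 and 65 in replicate 2. The locus chrY:43918755-43923546, nearest to the pseudogene Gm21241, had 45 reads (37.2 CPM) and 54 reads (107 CPM). A second one at chrY:20670650-20672233 had 35 and 2 reads. No read in either library was counted for Eif2s3y, Kdm5d, Uty or Ddx3y, genes that male tissues express broadly, and all annotated genes of the chromosome together had 7 reads and 1 read. Whether these reads have other places in the genome that match as well was not tested.

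Each feature of the tables was compared between the libraries, replicate 2 against replicate 1. Fisher's exact test (two-sided) was run on the reads. It covered 11008 annotated genes, antisense loci and intergenic loci with at least 10 reads over both libraries. A call needed a p under 0.05 after adjustment over all features (Benjamini-Hochberg) and a fold of 2 or more. Of 2944 intergenic loci only 90 passed the minimum and 22 of them were called, 5 higher and 17 lower in replicate 2. Over all features, 10.1% were called in either direction, 5.62% higher and 4.43% lower in replicate 2. Of the 22 called loci, 9 had 0 reads in replicate 2 and 2 had 0 reads in replicate 1. Those 11 passed the minimum through 1 library alone, so their calls follow in part from that choice and the shares of the 90 loci are not set against the background. Of the 71 loci with reads in both libraries, 3 (4.23%) were called higher and 8 (11.3%) lower in replicate 2, against 5.66% and 3.91% of the 10835 features with reads in both, a restriction chosen after seeing the data. The median log2 ratio was -0.61 over those 71 loci and -0.07 over those features. Among the 748 antisense loci tested, without that restriction, 8 were called higher and 106 lower, with a median log2 ratio of -0.66. The lean towards lower values in replicate 2 was thus also present in the antisense class. Of the 22 called loci, 11 shared 1 base with a gene. With edgeR's exact test at a preset dispersion 11 of the 22 were called. An unadjusted p under 0.05 in Fisher's exact test was reached by 38 of the 90 loci and by 3147 of the 11008 features. As 19 of the 90 had 0 reads in 1 library, these counts are likewise not compared.

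The 5 loci that were lower in replicate 2 by the most all had 0 reads there and entered the comparison through replicate 1 alone, so they are given by their values. The locus chr11:20334834-20335012 at the end of the pseudogene Gm12033 had 131 reads (108 CPM) and 0, which is at least 18.1-fold lower against 3 reads in replicate 2. The pseudogene itself had 104 and 170 reads, and the sum of locus and gene was 235 reads (194 CPM) and 170 reads (338 CPM), which is higher in replicate 2. The locus chr17:5816056-5816200 at the end of the pseudogene Gm10231 had 74 reads (61.2 CPM) and 0, at least 10.3-fold lower. With the 19 and 31 reads of the pseudogene, the sum was 93 and 31 reads (76.9 and 61.7 CPM). At both, a difference in the locus went with the opposite difference in the gene it touches.

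The locus chr11:41500458-41500909 at the end of Hspd1-ps3, a pseudogene of a mitochondrial chaperone gene, had 63 reads (52.1 CPM) and 0, and the pseudogene 4 and 0. The locus chr17:74140817-74141000, 23.3 kb from the pseudogene AC162923.1, had 49 reads (40.5 CPM) and 0, but 97.3% of its bases were covered in replicate 2 by models of another class. The locus chr9:33728850-33730142 at the end of the pseudogene Gm10698 had 40 reads (33.1 CPM) and 0, and the sum with the gene's 422 and 149 reads was 382 and 296 CPM. Of these 3, only the Hspd1-ps3 locus had neither cover by other models nor reads of the touched gene in replicate 2.

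Among loci present in both libraries, the Fgfr4 locus was 2.50-fold higher in replicate 1 (exact 95% interval 1.90 to 3.34, log2 ratio -1.31 ± 0.20 SE, adjusted p = 1.76e-11 in Fisher's exact test). The Btbd35f1 locus was 5.14-fold higher there (2.98 to 9.59) and the Gm13655 locus 3.67-fold (2.22 to 6.46). The Dhx40 locus, at 1.57-fold (1.04 to 2.43), had an adjusted p of 0.115 in Fisher's exact test. With edgeR's exact test the Fgfr4 locus was no longer called (adjusted p = 0.114), whereas Btbd35f1 (adjusted p = 0.00271) and Gm13655 (0.0335) were.

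The 5 loci called higher in replicate 2 began with 2 that had 0 reads in replicate 1. The locus chr12:24638001-24638669 at the end of the pseudogene Gm6969 had 0 and 32 reads (63.7 CPM), at least 25.7-fold higher, with 84.0% of its bases covered in replicate 1 by models of another class. The pseudogene itself had 11 and 2 reads, and the sum of locus and gene was 11 and 34 reads (9.09 and 67.6 CPM), 2.85 higher in replicate 2 on the log2 scale. The locus chr11:100457022-100461670 past the end of Klhl10, a gene of spermatids, had 0 and 31 reads (61.7 CPM), at least 24.9-fold higher, with 45.8% so covered, and Klhl10 itself had 0 reads in both. The locus chr8:117459430-117461503 past the end of Cmip had 1 and 9 reads, whereas Cmip had 151 and 10, so that their sum was lower in replicate 2 (126 and 37.8 CPM). The locus chr12:109600821-109602917, 491 bases upstream of the imprinted gene Rtl1, had 3 and 10 reads (2.48 and 19.9 CPM), with 0 reads of Rtl1 in both. The fifth was the chromosome Y locus described above, 1.53 ± 0.29 (SE) on the log2 scale (adjusted p = 4.80e-06, Fisher's exact test). The Cmip, Rtl1 and chromosome Y loci were not called with edgeR's exact test (adjusted p of 0.0538, 0.0962 and 0.102).

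**Figure D5:**
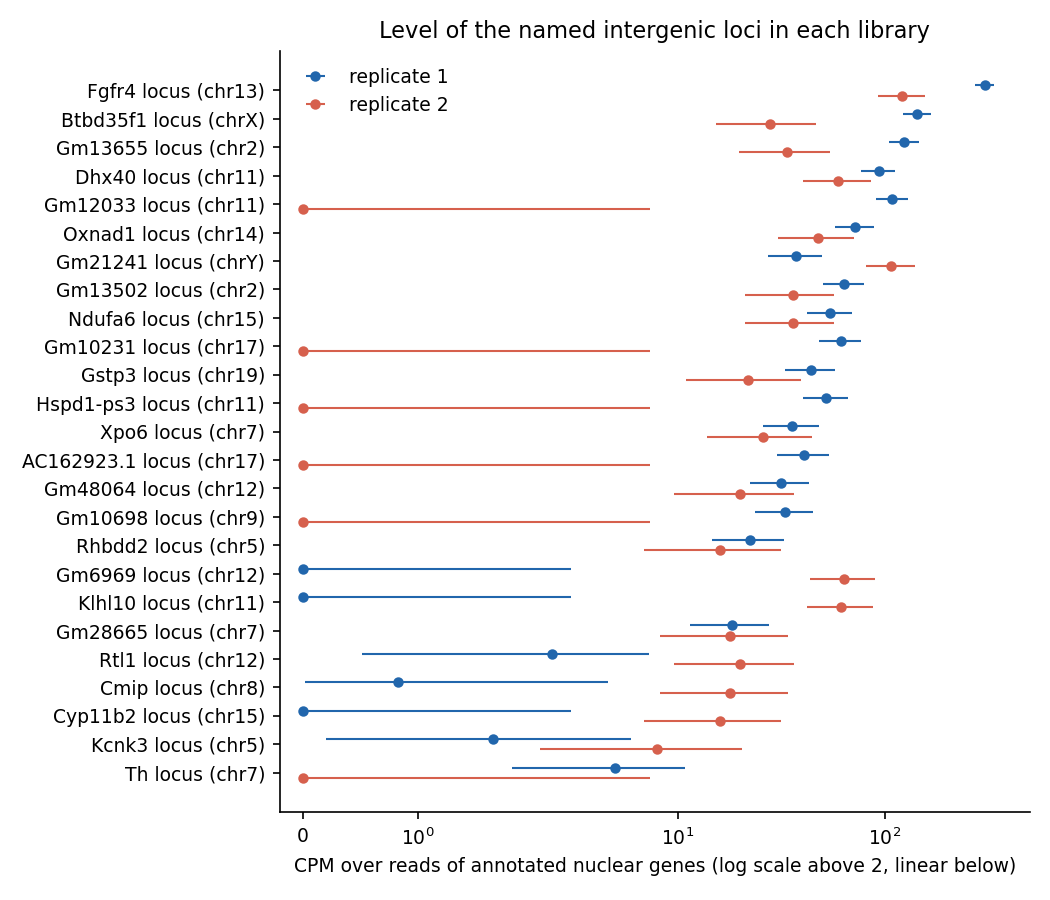
CPM of the named intergenic loci in replicate 1 (blue) and replicate 2 (red), with exact Poisson 95% intervals for counting error, named by the nearest gene. The x axis is logarithmic above 2 CPM and linear below. Points at 0 are loci with no read in that library, 6 in replicate 2 and 3 in replicate 1.

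Intergenic loci beside genes of adrenal function held few reads, as most loci of the class did. A locus lay within 10 kb of 4 of 20 genes of steroidogenesis, 5 of 19 of chromaffin cells, 5 of 18 of cholesterol supply and 4 of 13 of zonation and Wnt signalling, against 16.6% of the 9952 genes that reached 3 reads in both libraries. The share was above 16.6% in all 4 lists, but the lists were not held to that minimum (Kcnk9 had 9 and 2 reads). The difference was not tested. The loci near the listed genes had between 1 and 8 reads. Past the end of Cyp11b2, the aldosterone synthase, the locus chr15:74849735-74851010 on the minus strand had 0 and 8 reads (15.9 CPM in replicate 2), and all its bases were covered in replicate 1 by models of another class. It lay 8092 bases upstream of Cyp11b1, the 11-beta-hydroxylase. Cyp11b2 had 1313 and 424 reads. Downstream of Kcnk3, a potassium channel of the zona glomerulosa, the locus chr5:30630309-30633256 had 2 and 4 reads against 1357 and 1790 of the gene. Downstream of Th, tyrosine hydroxylase, the locus chr7:142889730-142889838 had 6 and 0 reads against 1581 and 689, and 99.1% of its bases were covered in replicate 2 by models of another class. Past the end of Dbh, which makes noradrenaline from dopamine, a locus had 3 reads and 1 read, and past that of Wnt4, a signal of the outer cortex, 3 reads and 0. None of the 5 reached the minimum of 10 reads, so their difference between libraries was not tested.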

How the data were processed

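Adrenal RNA of 2 libraries (1 group) was measured by long-read sequencing. Per the deposited readme files, the authors quantified models on mm10 with GENCODE M21. New models carry the source TALON per the file headers. The sources used here name neither aligner nor platform. The deposited values are whole-number read counts per model, not normalised (1277310 and 520388 reads in all). Exons, strand and positions came from the matching model files.

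Here, models were joined to loci by span, reads were scaled to CPM over annotated nuclear genes, and distances were measured to M21 gene spans, since gene spans in the deposited files can include new models. This differs from the planned use of the deposited spans. RefSeq tables were of GRCm38.p6. Log2 ratios add 0.5 reads. Software was Python 3.11.15, scipy 1.17.1, edgeR 4.0.16 and DESeq2 1.42.0 (the last 2 for alternatives). The test was checked on simulated counts. Named loci were the 10 with the most reads, the next 5 multi-exon ones, the 5 largest and 5 smallest called ratios, and the 3 with the most reads near adrenal genes. Members and lists were chosen with earlier results of these data known. Base composition of flanks and splice sites was not analysed here, as no genome sequence was used.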

Additional observations from a re-analysis of the deposited data

How the results depend on the processing

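The number of models was 833, 440 and 220 with at least 2, 3 and 5 reads, 2282 with replicate 1 thinned to the total of replicate 2, and 964 to 2618 leaving out 1 library, against 3582. Shared loci were 135, 63 and 31 with at least 2, 3 and 5 reads in each library, against 374, and lay within 1.5 times of that under each other definition of overlap, with thinning, and without the loci that touch a gene. The multi-exon share was 10.9% of models with at least 3 reads and 10.2% per read, against 14.8%, and 14.7% to 15.1% leaving out 1 library. The median distance of models, 2649 bases, became 9565.5 on the same strand, 5037 to protein coding genes, 5735 to genes with at least 3 reads, 1860 for models with at least 3 reads and 2645 to 2667 leaving out 1 library. Of the alternatives added after seeing the data, it was 2693 with gene spans of the deposited files and 4473 without touching models. The same-strand share was 54.8% within 1 kb, against 53.2%. Called loci fell from 22 to 11 with edgeR's exact test at a preset dispersion (all 11 among the 22), to 9 at a minimum of 50 reads, to 11 without loci that touch a gene and to 11 without those with 0 reads in a library (both added later). With TMM or DESeq2's size factors they stayed at 22. Adding the reads of the touched gene (added later) reversed the log2 ratio to 0.80 at Gm12033 and -1.70 at Cmip, and reduced it to -0.30 at Gm10231, -0.36 at Gm10698 and 2.85 at Gm6969. Here the added reads are themselves the change. For the other shifts the cause was not tested, apart from fewer reads or models counted. The share of reads, 0.329% to 0.521%, and the CPM, 3295 to 5215, are the libraries' own values. The 1 library a side leaves no replicate check of the calls. No paired analysis was possible because the libraries form a single group. Base composition of 3′ flanks, poly(A) signals and intron ends were not run, as no genome of the build was used.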
